A study of Drosophila melanogaster with 6 samples.

Results

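Alkaline phosphatases are followed here in whole Drosophila melanogaster larvae that express the nuclear receptor DHR96 in excess, with messenger RNA measured on 6 oligonucleotide arrays. The 10 members, Alp1, Alp2, Alp4, Alp5, Alp6, Alp7, Alp8, Alp9, Alp10 and Alp12, were chosen by gene symbol from the platform annotation, with the gain and control values of these arrays already known. Their differences between the groups are therefore given as descriptions, with no test. The annotation names 12 alkaline phosphatase genes among 11982 named genes, each by 1 probe set, and the other 2, Alp11 and Alp13, are set beside the members. Of the 10 members, 9 passed the filter on low values, which asked for a log2 intensity of 4 or more on 3 or more of the 6 arrays, and Alp2 did not.

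The 3 gain arrays came from larvae of a line that carries a full-length DHR96 cDNA behind a heat-shock promoter, put into the w1118 strain with a P element. The 3 control arrays came from w1118 larvae without a transgene. All larvae were young and feeding, early in the third instar, and fed on yeast. Heat treatment began 3 h past the moult and lasted 1 h at 37.5 °C, with RNA extraction 4 h afterwards. A heat-shock promoter is not specific to gut or tubule, and transgenic larvae without heat are not part of the comparison. Effects of induced DHR96 and of the line itself cannot be told apart.

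Alkaline phosphatases are enzymes that remove phosphate from small molecules and proteins at alkaline pH. They hold zinc and magnesium, and most are tied to the outer face of the cell membrane by a glycolipid (GPI) anchor, so that they act outside the cell. In animals they are used as markers of the absorptive brush border of the intestine, and in insects also of the Malpighian tubules, the renal organs. DHR96 is a nuclear receptor known for its part in cholesterol and triacylglycerol handling in the fly midgut.

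Hr96, the gene for DHR96, read 9.47, 9.82 and 9.50 (log2 intensity) on controls 1 to 3. On gain 1 to 3 it read 14.73, 14.71 and 14.64, far above every control. The share of probe sets at or above the floor of 4 ran from 44.4% to 44.8% over the 6 arrays. Controls 1 and 2 lay closest together, with an SD of 0.204 for their log2 difference over all 7974 tests, against 0.432 and 0.482 for control 3 with each of them. The median difference over all tests, gain minus control, was -0.15. Precision is limited by the 3 arrays in each group, and nothing in the labels says that they came from separate cultures, so spreads and p-values may reflect technical variation.

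The largest difference in the family was in Alp9 (CG5150). Its log2 intensities were 10.40, 10.68 and 11.21 on controls 1 to 3 and 9.01, 8.91 and 8.80 on gain 1 to 3. The highest gain value lay 1.40 below the lowest control value, and the difference was -1.86 ± 0.21 (SE, n = 3 per group), 3.62-fold lower in gain larvae. The neighbouring gene Alp10 (CG10592) followed, with 11.12, 11.11 and 11.41 in control and 10.33, 10.30 and 10.12 in gain. All 3 gain arrays were again below all 3 controls, by a gap of 0.78, and the difference of -0.96 ± 0.13 (SE, n = 3 per group) made Alp10 1.95-fold lower. Alp9 and Alp10 were the 2 members among the 277 tests called lower at an adjusted p under 0.05 in limma's fit over all genes, which is 3.47% of tests. None of the members was among the 36 called higher, 0.451% of tests. Since the members were put forward with this contrast known, nothing is read from these counts. Without control 1 or gain 1 the call of Alp10 ended, and without control 2 both calls ended, with differences of -1.90 for Alp9 and -1.01 for Alp10. Only Alp9 was called after median centring and only Alp10 with no filter. RNA of whole larvae does not show whether fewer cells of a type or less RNA in each cell lay behind a lower value, and the 2 cannot be told apart.

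**Figure D1:**
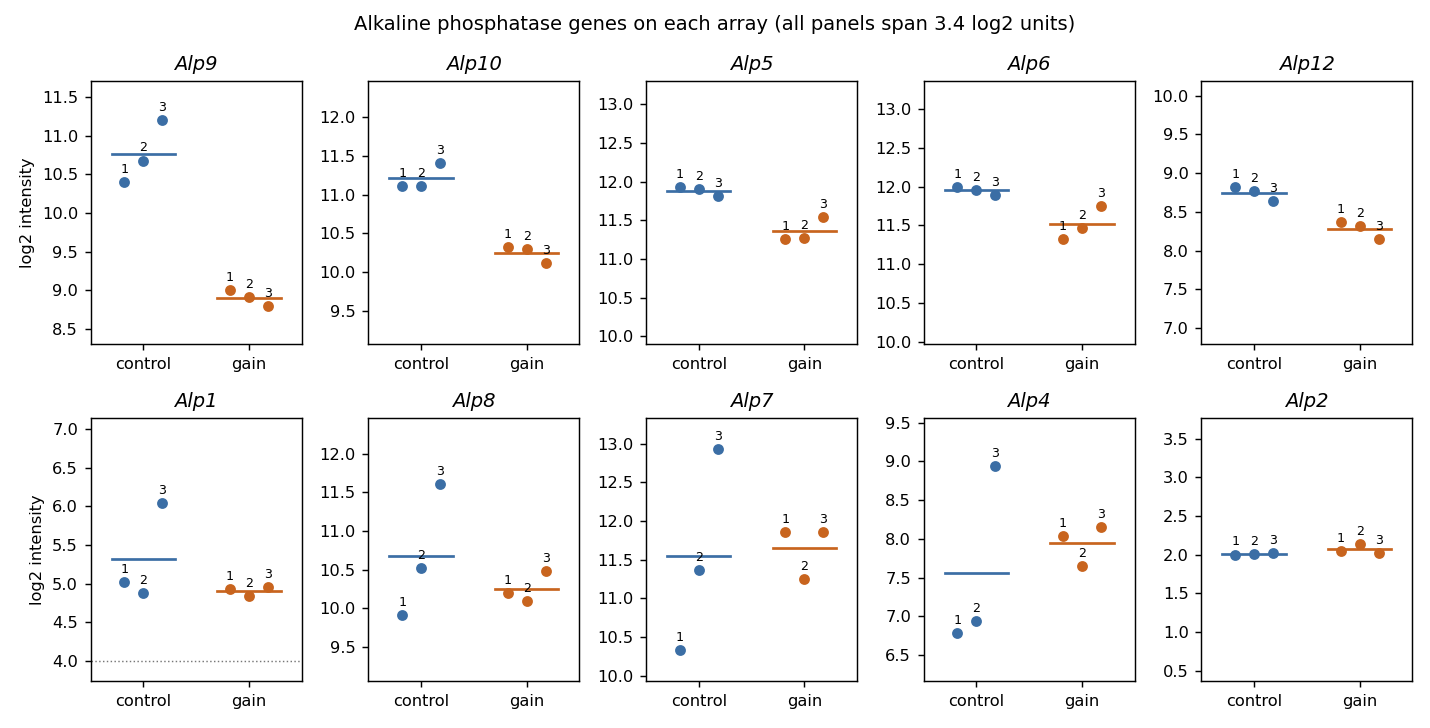
Log2 intensity of the 10 members on each array, with the replicate number beside each point, a bar at each group's mean and a dotted line at the floor of 4 where it falls in the panel. Alp9, Alp10, Alp5, Alp6 and Alp12 have every gain array below every control array; Alp1, Alp8, Alp7 and Alp4 have control 3 as their highest value.

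Alp5, Alp6 and Alp12 formed a second set, with small differences and little spread among controls. Alp5 (CG10827) had 11.93, 11.90 and 11.81 in control and 11.26, 11.27 and 11.54 in gain. Alp6 (CG1809) had 12.001, 11.96 and 11.90 in control and 11.33, 11.47 and 11.75 in gain. Alp12 (CG16771) had 8.83, 8.77 and 8.64 in control and 8.36, 8.32 and 8.15 in gain. In each of them the gain arrays lay below the controls without overlap, by gaps of 0.27, 0.15 and 0.27, and gain 3 was the highest gain array for Alp5 and Alp6 and the lowest for Alp12. The differences were -0.52 ± 0.12, -0.44 ± 0.13 and -0.46 ± 0.11 (SE, n = 3 per group), or 1.44-fold, 1.35-fold and 1.38-fold lower, and the 3 genes were not called. Median centring of the arrays, which moved the median of all tests from -0.15 to 0.11, made these differences -0.27, -0.18 and -0.21. With Alp9 and Alp10, 5 of the 9 tested members had groups that did not overlap with gain lower, beside 25.2% of all tests, and nothing is read from that count either. The median difference of the 9 was -0.44, and 7 of them had a negative difference, as did 75.0% of all tests. That median was -0.18 with median centring, -0.23 with quantile normalization and -0.29 with median difference centring.

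In Alp1, Alp4, Alp7 and Alp8 the spread among controls was as large as any difference between the groups. Alp7 (CG3292) read 10.33, 11.36 and 12.93 on the controls and 11.86, 11.25 and 11.86 on the gain arrays. Alp4 (CG1462) had 6.79, 6.94 and 8.94 in control and 8.04, 7.65 and 8.15 in gain. Alp4, the former Aph-4, is known from the Malpighian tubule and from the ellipsoid body of the fly brain. For Alp4 and Alp7 the gain arrays lay between control 3 above and control 1 below. Alp8 (CG3264) had 9.91, 10.52 and 11.61 in control and 10.19, 10.09 and 10.48 in gain. Alp1 (CG5656), the locus long known as Aph, had 5.03, 4.88 and 6.04 in control and 4.93, 4.85 and 4.95 in gain. Control 3 was the highest array for all 4 genes, and the groups overlapped in each.

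Control 3 lay above the mean of the other controls by 2.09 for Alp7, 2.08 for Alp4, 1.39 for Alp8 and 1.09 for Alp1. Such an excess of 1 or more was found in 1.19% of all tests, and the median of all tests was 0.02. The control SD was 1.31 for Alp7 and 1.20 for Alp4, and 0.451% and 0.564% of tests had one as large. For Alp8 and Alp1 it was 0.86 and 0.63, reached by 1.27% and 2.80% of tests. Alp9 was also high on control 3, by 0.67, and Alp10 by 0.30, whereas Alp5, Alp6 and Alp12 lay lower there, at -0.11, -0.08 and -0.16. Control 1 and control 2 themselves differed by 1.03 for Alp7 and 0.61 for Alp8, with control 2 the higher, but by 0.15 for Alp4. Of the 4 fat body markers tested, the larval serum protein gene Lsp2 stood at 14.45 on control 3, against 13.16 and 11.64 on controls 1 and 2, and Fbp1 at 5.85, against 4.59 and 4.58. Fbp2, at 12.56, lay between controls 1 and 2 (12.69 and 11.40), and apolpp, at 15.14, was the lowest of the controls (15.29 and 15.41 on the others). The part of fat body content or of larval stage in these values was not tested.

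**Figure D2:**
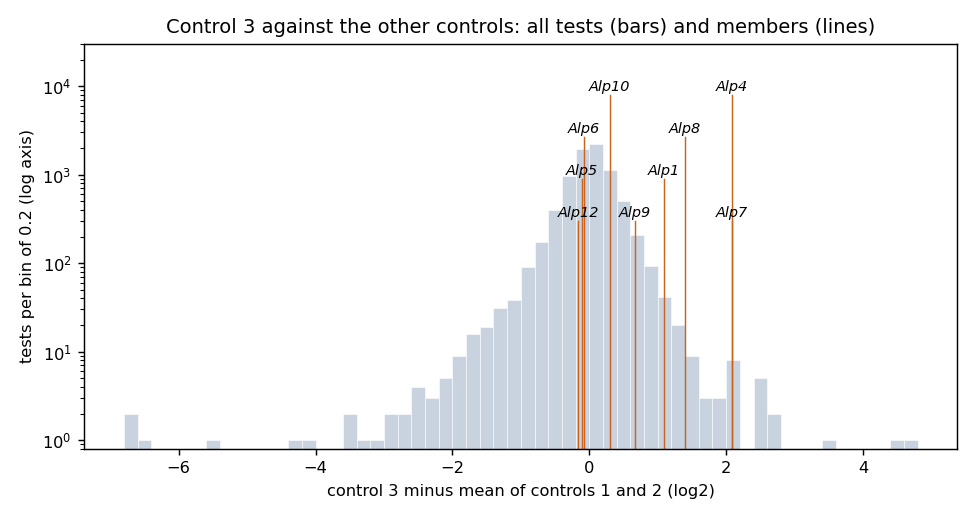
Histogram of control 3 minus the mean of controls 1 and 2, in log2 units, for all 7974 tests (bars, log axis), with a line for each of the 9 tested members. Alp7, Alp4, Alp8 and Alp1 lie at 2.09, 2.08, 1.39 and 1.09, and Alp5, Alp6 and Alp12 lie just below 0.

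For these 4 genes the difference between the groups depended on the arrays used. With all arrays the differences were 0.11 ± 0.62 for Alp7, 0.39 ± 0.56 for Alp4, -0.43 ± 0.41 for Alp8 and -0.41 ± 0.30 for Alp1 (SE, n = 3 per group), so that each SE was large beside its difference. Without control 3 they were 0.81 ± 0.35, 1.08 ± 0.18, 0.04 ± 0.22 and -0.04 ± 0.12. Alp4 was then called higher, as it was without control 3 and gain 2, and nothing is read from these calls. Without control 1 the difference was -0.49 for Alp7, 0.005 for Alp4, -0.81 for Alp8 and -0.55 for Alp1. The sign of Alp7 and Alp8 thus changed with the array left out. For Alp9 and Alp10 the values without control 3 were -1.63 ± 0.14 and -0.86 ± 0.12, and for Alp5, Alp6 and Alp12 -0.56, -0.46 and -0.52.

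**Figure D3:**
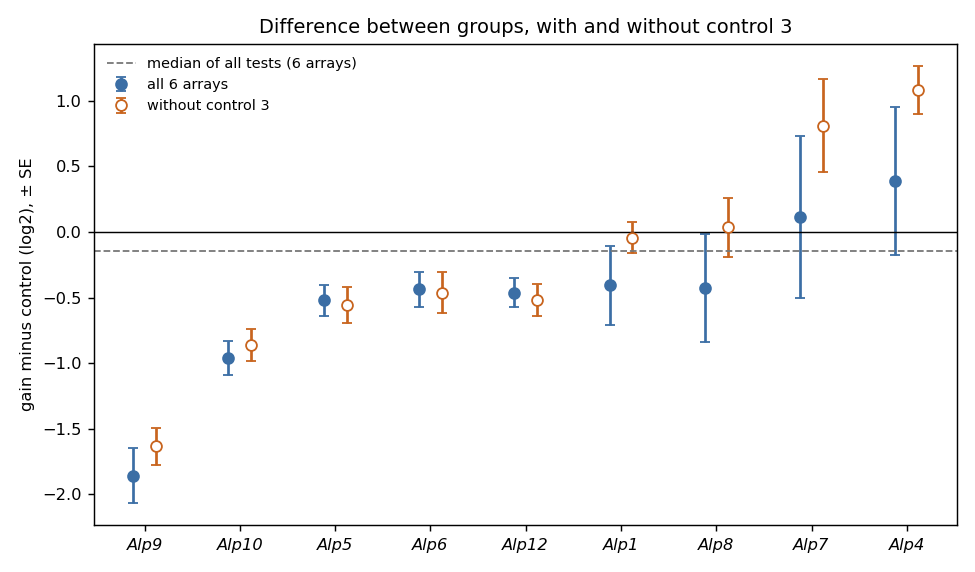
Difference between gain and control in log2 units, with the SE of the fit, for the 9 tested members from all 6 arrays (filled) and without control 3 (open); the dashed line is the median of all tests, -0.15. Alp1, Alp8, Alp7 and Alp4 move up, Alp1 from -0.41 to -0.04 and Alp4 from 0.39 to 1.08, and Alp9 moves from -1.86 to -1.63.

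Alp2 (CG3290) was near the bottom of the scale on every array, from 2.00 to 2.03 in control and from 2.02 to 2.14 in gain, and no difference is given for it. Alp11, outside the members, was also below the floor throughout, with group means of 2.66 and 2.76. Alp13 had 6.01, 6.25 and 7.03 in control and 5.70, 6.28 and 6.40 in gain. It shared the high value on control 3 with Alp1, Alp4, Alp7 and Alp8, by 0.90, and its difference was -0.30 ± 0.31 with all arrays and -0.002 without control 3. Family members resemble each other in sequence, and whether a probe set also reads a near copy was not tested.

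Profiles over the 6 arrays, each gene centred on its own mean, were set side by side by their root mean square distance among the 7010 named genes tested. The 5 genes nearest to Alp9 were betaTub85D, at a distance of 0.21, CG34316 at 0.24, Efr at 0.25, yata at 0.26 and CG10252 at 0.28. Of these, betaTub85D read 4.98, 5.30 and 6.07 in control and 3.38, 3.95 and 3.54 in gain. It passed the filter through the controls alone, so its difference is a bound only and nothing is read from its place. Alp10, which lies next to Alp9, came at place 80 with a distance of 0.47. The profiles of Alp5 and Alp7 were compared after their values were seen. Alp6 was the 8th nearest of 7009 genes to Alp5, at 0.06, after Cyp305a1, Gk2, CG2930, CG18547 and CG7968, which stood first with distances from 0.04 to 0.05. Alp12 was only at place 544 from Alp5, with a distance of 0.16. Alp4 was the third nearest gene to Alp7, at 0.30, after CG10513 at 0.19 and CG9259 at 0.24. Alp8 came at place 15 with 0.40 and Alp1 at place 92 with 0.57. Alp9 was at place 6754 from Alp7. All these distances include the difference between the groups and the spread within them.

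Some members are neighbours in the genome. Alp10 and Alp9 lie side by side on chromosome arm 3L with no annotated gene between them. The genes with a probe set around them were spo, a P450 gene of ecdysone synthesis, and CG10591, both below the floor on all arrays, and TM9SF3, with a difference of -0.08 (limma, adjusted p = 0.784), and mthl2, with -0.78 (adjusted p = 0.277). Alp7, Alp2 and Alp8 follow each other on arm 2R. Alp2, in the middle, was below the floor, while Alp7 and Alp8 on either side were well above it and both highest on control 3. CG11291, next to Alp8, was below the floor on all arrays. Swim, 3 places from Alp7, had a difference of 0.10 (limma, adjusted p = 0.683), and ari-2, 2 places from Alp8, one of -0.35 (adjusted p = 0.370). Of 42 genes within 3 places of a member, 26 had a probe set and 17 were tested. None of the 17 passed by limma, and 3 had an unadjusted p under 0.05, beside 21.1% of all tests. The median difference of the 17 was -0.08, beside -0.15 for all tests.

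**Figure D4:**
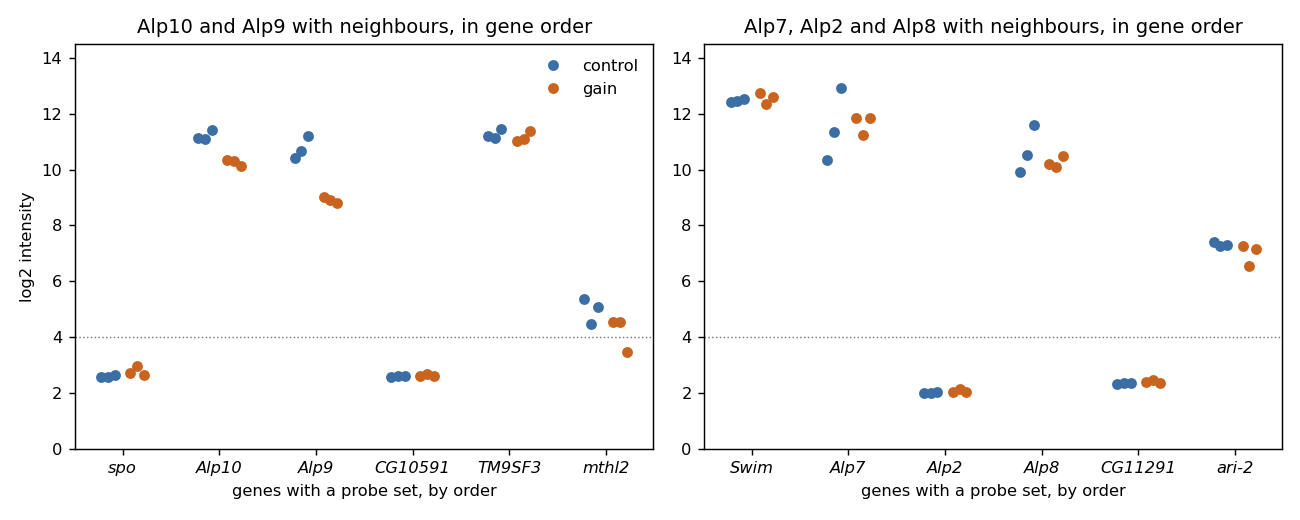
Log2 intensity on each array, replicates 1 to 3 from left to right, for the members of the 2 clusters and the neighbouring genes with a probe set, in gene order; the dotted line is the floor of 4, and levels of different genes are not comparable. In the left panel the gain arrays stand apart from the controls for Alp10 and Alp9, and in the right panel Alp2 lies near 2 between Alp7 and Alp8.

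Genes that act on the substrates or the product of alkaline phosphatases, or that build the enzyme, were read from the same fit. Of 6 acid phosphatases and inositol polyphosphate phosphatases tested, CG9449 fell and 5 did not pass, where 3.47% of all tests were called lower. CG9449, of the histidine acid phosphatase family, had 12.52, 12.60 and 12.20 on the controls and 11.55, 11.10 and 11.12 on the gain arrays, with a difference of -1.18 ± 0.17 (SE, n = 3 per group, limma, adjusted p = 0.0193). Its second probe set gave -1.30. CG9451, which resembles it, had -0.59 (adjusted p = 0.202), and the list's median was -0.13. The call of CG9449 ended without control 1 (adjusted p = 0.113), control 2 (0.0892), gain 2 (0.0583) or gain 3 (0.0566), with no filter (0.0740) and with controls 1 and 2 averaged (0.0999), and CG9451 was also called without control 3.

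Of 10 genes of extracellular nucleotide and adenosine handling tested, 2 fell and 8 did not pass, where 3.47% of all tests were called lower. Both that fell are listed as ecto-5′-nucleotidases, which, like alkaline phosphatases, take phosphate from AMP. NT5E-2, by its symbol of the same kind, did not pass, with a difference of -0.07 (limma, adjusted p = 0.836). The gene veil had 10.92, 10.98 and 10.80 on the controls and 10.23, 10.19 and 10.28 on the gain arrays, with a difference of -0.66 ± 0.10 (SE, n = 3 per group, limma, adjusted p = 0.0211). CG42249 had 10.71, 10.59 and 10.50 on the controls and 9.90, 9.76 and 10.06 on the gain arrays, with a difference of -0.69 ± 0.12 (adjusted p = 0.0365), with -0.81 at its second probe set. In both genes, named because they were called lower, all gain arrays lay below all controls, as in 25.2% of all tests. The nucleoside transporter gene Ent2 had -0.72 without passing (adjusted p = 0.191), and the median of the list was -0.23. Without control 1 (adjusted p = 0.142 and 0.178), control 2 (0.114 and 0.142) or gain 1 (0.0843 and 0.112) the calls of veil and CG42249 ended, and that of CG42249 also without gain 2 (0.0578). Adgf-D was also called without control 3. With median centring neither was called, at differences of -0.41 and -0.44, nor with controls 1 and 2 averaged (adjusted p = 0.129 and 0.154). The call of veil also ended with quantile normalization (0.0521), and that of CG42249 with no filter (0.0725) and with the mean of probe sets (0.0558).

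None of 8 phosphate transporters passed by limma, though 7 had a negative difference, beside 75.0% of all tests, and 5 an unadjusted p under 0.05, beside 21.1% of all tests. Their median of -0.64 was lower than the -0.15 of all tests. MFS10 had -0.87 (adjusted p = 0.121) and PXo, which moves phosphate into storage organelles of enterocytes, -0.84 (adjusted p = 0.148). None of 17 GPI anchor genes passed (3 with an unadjusted p under 0.05), with a median of -0.17. GAA1, of the enzyme complex that attaches the anchor, had -0.64 (adjusted p = 0.0815) and PIG-L -0.53 (adjusted p = 0.0933). None of 6 zinc exporters of the ZnT family passed (1 with an unadjusted p under 0.05), with a median of -0.31, ZnT77C at -0.53 (adjusted p = 0.280) and ZnT63C at -0.45 (adjusted p = 0.126).

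**Figure D5:**
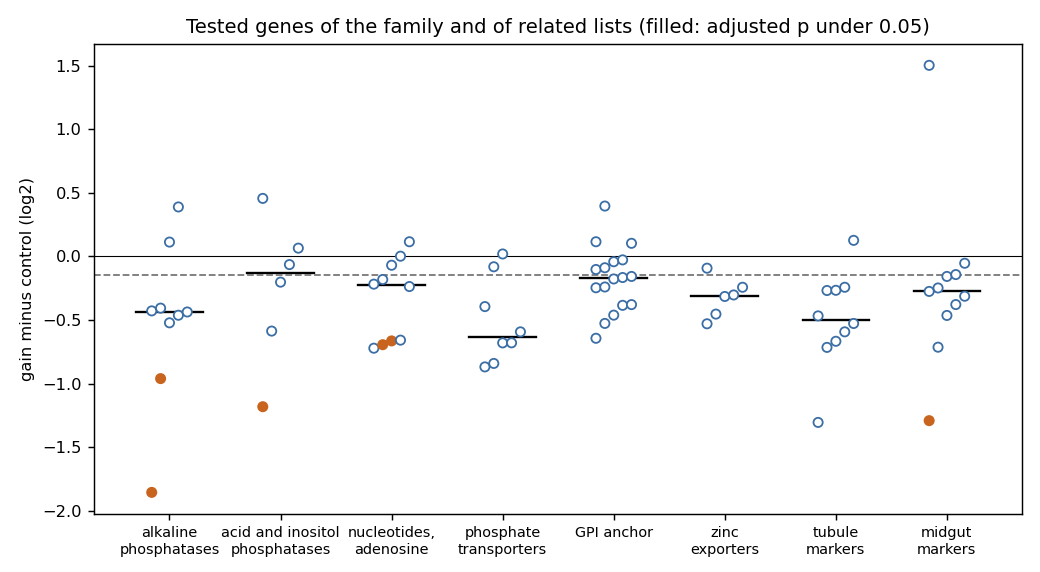
Difference between gain and control in log2 units for each tested gene of the family, of 5 related lists and of the tubule and midgut markers; filled points were called in limma's fit over all genes, short bars are medians, and the dashed line is the median of all tests. The called genes outside the family are CG9449, veil, CG42249 and GATAe, all lower in gain.

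Markers of the tissues that are known for alkaline phosphatase were present on all arrays. Of 12 Malpighian tubule markers 10 had a probe set named for them, all of them were tested, and none passed by limma, with 6 at an unadjusted p under 0.05, beside 21.1% of all tests. The lists share genes, since NaPi-T is also counted among the phosphate transporters and ZnT35C among the zinc exporters. Of these 10, 9 had a negative difference, beside 75.0% of all tests, and the median was -0.50. SecCl, a chloride channel gene of the tubule, had -1.31 (adjusted p = 0.102) and the aquaporin gene Drip -0.72 (adjusted p = 0.148). The summed tubule signal ran from 12.92 to 13.02 in control and from 12.15 to 12.60 in gain on the log2 scale, so gain lay lower without overlap. It did so in 25.2% of single tests, a share for single genes and not for sums. Alp4, a tubule gene, is not set against the tubule markers, because the size of its difference depended on the arrays used. Its control and gain arrays overlapped, though its difference stayed positive in every alternative. It was 0.39 (SE 0.56) from all arrays, 0.005 without control 1 and 1.08 (SE 0.18) without control 3. Of 16 midgut markers 11 were tested, and GATAe fell, where 3.47% of all tests were called lower. GATAe, which encodes a GATA factor of the endoderm, had 9.37, 9.35 and 9.28 on the controls and 7.93, 7.95 and 8.25 on the gain arrays, with a difference of -1.29 ± 0.12 (SE, n = 3 per group, limma, adjusted p = 0.0063). Its call ended without control 1 (adjusted p = 0.0506). The other 10 did not pass, 7 of the 11 had an unadjusted p under 0.05, and thetaTry stood at 1.504 (adjusted p = 0.0561). Without control 3 thetaTry was called too, and without gain 3 Vha100-4, a proton pump gene. The median was -0.27, and the summed midgut signal ran from 17.33 to 17.45 in control and from 17.07 to 17.22 in gain, also lower without overlap. The part of tubule or gut content in the differences of the alkaline phosphatases was not tested.

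Markers of other tissues gave no call. The 4 fat body markers tested had differences from -0.79 to 0.45, the 2 of muscle -0.10 and -0.08, the 4 of haemocytes from -0.28 to 0.32, and elav of neurons -0.52 (limma, adjusted p = 0.351). The other 3 neuron markers with a probe set, nSyb, brp and Rdl, lay below the floor on all 6 arrays. Unadjusted p-values under 0.05 numbered 0 in these lists. The summed fat body signal ran from 15.60 to 15.98 in control and from 15.46 to 15.56 in gain, lower without overlap like the tubule and midgut sums. For the sums of muscle and haemocyte markers and for elav the groups overlapped. On control 3 the 4 fat body markers had a median 0.89 above the other controls, from -0.21 for apolpp to 2.06 for Lsp2. The midgut markers had a median of 0.13, from -0.08 for GATAe to 1.13 for thetaTry. The median was 0.32 for haemocyte markers, 0.03 for tubule markers and -0.05 for muscle markers, and elav lay at -0.37.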

How the data were processed

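The authors deposited a linear intensity for each probe set on each array. GCRMA is the tool that the submitters' processing notes name, without a version, and no source used here gives a build or scanner. Genes were named from the platform annotation, and of 13647 probe sets with 1 gene 13544 matched the Release 6 plus ISO1 MT reference by gene ID, used for symbols and gene order. From the deposited intensities log2 values were taken with no pseudocount. Control probe sets were left out, a floor of 4 on at least 3 arrays kept 8395 probe sets, and the brightest probe set of each gene left 7974 tests. The 2 groups were fitted with lmFit and eBayes of limma 3.58.1 (R 4.3.3) without covariates, with Benjamini-Hochberg adjustment over all tests and calls at an adjusted p under 0.05. The procedure was tested on simulated data. Python 3.11.15, NumPy 2.4.6, pandas 2.3.3 and Matplotlib 3.10.9 made the tables and figures.

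The members, lists, markers, alternatives and the rule for named genes were chosen with earlier results of these data known. Named are all members, Hr96, called list genes and the 2 largest differences of each list, called markers, genes within a cluster and the 5 profiles nearest to the member with the largest difference; others named were chosen after their values were seen. Alternatives were no filter, a floor of 6, 3 scalings, an intensity trend, robust hyperparameters, array weights, other uses of probe sets, the replicate block, a pseudocount of 16 and arrays left out; averaging controls 1 and 2 was added after the data were seen. Promoters and proteins were not analysed here.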

Additional observations from a re-analysis of the deposited data

How the results depend on the processing

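With 3 arrays a group, calls depended on single arrays. The count of members called, 2 with all arrays, was 1 with no filter, with median centring and with controls 1 and 2 averaged, 5 with array weights (Alp5, Alp6, Alp9, Alp10 and Alp12) and from 0 to 3 with each array left out. The 3 called without control 3 were Alp9 and Alp10, lower, and Alp4, higher. The same 3 were called without control 3 and gain 2. The median difference of the tested members ran from -0.54 to -0.41 with an array left out, and was -0.18 with median centring, -0.23 with quantile normalization and -0.29 with median difference centring, against -0.44. Alp9 ran from -2.04 to -1.63. The sign of Alp7 was negative without control 1 and with controls 1 and 2 averaged (-0.23), and that of Alp8 positive without control 3, without control 3 and gain 2 (0.12) and with array weights (0.05).

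Over all genes 313 were called, 36 higher and 277 lower. The counts were 102 with no filter (17 and 85), 453 with quantile normalization (171 and 282), 456 with median centring (204 and 252), 478 with median difference centring (129 and 349), 1526 with array weights (289 and 1237), 760 without control 3 and gain 2 (129 and 631), 53 with controls 1 and 2 averaged (13 and 40), and from 39 to 425 with each array left out (12 to 51 higher, 27 to 374 lower; 39 without control 1, 59 without control 2, 135 without gain 1). Array weights were taken gene by gene, since the default estimate did not converge.

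Acid phosphatases called, 1 with all arrays, numbered 0 with no filter and with controls 1 and 2 averaged, 2 with array weights and without control 3 and gain 2, and 0 to 2 with an array left out. With every probe set the 2 calls were both probe sets of CG9449. Nucleotide and adenosine genes, 2 with all arrays, numbered 1 with no filter, quantile normalization or the mean of probe sets, 0 with median centring, the replicate block or controls 1 and 2 averaged, and 0 to 3 with an array left out. Phosphate transporters, 0 with all arrays, numbered 5 with array weights and 1 without control 3 and gain 2. GPI anchor genes, 0 with all arrays, numbered 1 with quantile normalization (GAA1, lower), 1 with median centring (PGAP1, higher), 2 with median difference centring and 3 with array weights. Zinc exporters, 0 with all arrays, numbered 2 with array weights and 1 without control 3 and gain 2, and neighbouring genes 3 with array weights. Tubule markers, 0 with all arrays, numbered 7 with array weights and 1 with quantile normalization or without control 3 and gain 2. Midgut markers, 1 with all arrays, numbered 6 with array weights, 4 with an intensity trend, 0 to 2 with an array left out, and 2 with a floor of 6, quantile normalization, either centring, the replicate block, a pseudocount of 16 or without control 3 and gain 2. The causes were not tested.

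With the replicate block 258 genes were called, the same 2 members among them, and veil (adjusted p = 0.0619) and CG42249 (0.0772) were not. The deviations of arrays with the same number correlated by 0.21, 0.03 and 0.37, and control 2 correlated best with gain 1 (0.34), so the numbers were not taken as pairs.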

Other observations

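Adgf-D, of a family of secreted adenosine deaminases, was low on control 3, in contrast to Alp1, Alp4, Alp7 and Alp8. Its log2 intensities were 9.36, 9.64 and 7.37 on controls 1 to 3 and 8.08, 8.27 and 8.04 on gain 1 to 3, so that control 3 was the lowest of the 6 arrays, at -2.13 from the other controls. A fall of 1 or more on control 3 was found in 1.74% of all tests. The difference between the groups was -0.66 ± 0.57 (SE, n = 3 per group, limma, adjusted p = 0.543) with all arrays and -1.37 without control 3, when it was called.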
